A study of Zea mays subsp. mays x Zea mays subsp. mexicana with 20 samples.

Results

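Small RNA of pollen from *dcl2-mu1* maize plants was set against that of *Dcl2* plants at every small RNA cluster with at least 15 reads over the 4 libraries compared. A cluster is a genomic interval covered by overlapping reads, delimited as in the deposited table. Of the 85421 clusters in the table, 30446 (35.6%) met this rule, 30187 of them on the 10 chromosomes and 259 on unplaced scaffolds. They ran from 18 to 29671 bp, with a median of 1351 bp. They held 98.2% and 98.4% of the counts of the *Dcl2* libraries and 99.3% and 98.6% of those of *dcl2-mu1*. The table gives clusters by number and position and no gene, so the clusters were matched to no annotation and the labels could not be checked on *Dcl2* itself.

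Plants labelled *dcl2-mu1* had both copies of the gene disrupted by a *Mu* transposon inserted into the 5′ leader of *Dcl2*, ahead of the coding sequence. The allele came from a single Uniform-*Mu* line and had been backcrossed repeatedly to the inbred W22. The *Dcl2* plants carried the functional allele, and the study used segregating wild-type progeny as its controls. Whether both groups also carried the *Tpd* haplotypes of the series, which descend from teosinte *mexicana*, is not given for single samples in the labels. Each genotype had 2 libraries. The 2 libraries of one more genotype, *dcl2T* (homozygous for the teosinte allele of the gene), entered the model for its estimate of the spread and are given beside some results. The other 14 of the 20 samples were not analysed here. The study's methods call the libraries of a mutant genotype biological replicates, but whether each came from separate plants is not stated, so the tests measure the spread between libraries.

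DCL2 is a Dicer-like protein of plants that cuts double-stranded RNA into siRNAs of 22 nt, from hairpin transcripts that fold back on themselves and from RNA copied by an RNA-dependent polymerase. The siRNAs of 22 nt can set off the making of further siRNAs from the transcripts they cut. Most clusters of a plant genome come instead from the siRNAs of 24 nt that DCL3 makes over transposons and repeats, and other Dicer-like proteins can use part of the same RNA. The deposited counts join reads of all lengths, so every value below is for a whole cluster and not for 22-nt siRNAs alone.

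The depth of *dcl2-mu1* replicate 1 differed from that of the other libraries. Total counts were 3966305 and 4392281 in *Dcl2* and 1950081 and 4083990 in *dcl2-mu1*. A read was therefore worth 0.513 CPM (the count scaled to a common library total) in *dcl2-mu1* replicate 1 and 0.228 to 0.252 CPM in the other 3. In *dcl2-mu1* replicate 1, 49.0% of the members had no read, against 16.6% in replicate 2 and 13.1% and 12.3% in *Dcl2*. After all libraries were thinned to the total of replicate 1, the shares were 20.2% in *dcl2-mu1* replicate 2 and 17.1% and 17.0% in *Dcl2*. The share of members with at least 20 reads at equal totals was 18.5% in *dcl2-mu1* replicate 1, against 14.6%, 11.7% and 12.9% in the other 3. Counts of replicate 1 were thus held by fewer clusters, each with more reads, and for this reason the *dcl2-mu1* libraries are given separately.

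Few members passed the test. Of the 22558 clusters tested over all 6 pollen libraries, 21165 were members and 9281 members had too few reads to be tested. Tested with edgeR's quasi-likelihood test, 42 clusters were lower in *dcl2-mu1* (0.186% of those tested) and 53 were higher (0.235%), together 95 clusters (0.421%), and all of them were members. A call required a Benjamini-Hochberg adjusted p of at most 0.01 and a change of at least 2 on the log2 scale. At an unadjusted p under 0.05, 2282 tested members were lower and 1141 higher. The median log2 fold change was -0.27 over the tested members and -0.30 over all tested clusters. With library size alone as the scale, 51 were called lower and 105 higher, and the median over all tested clusters was 0.02. At an unadjusted p under 0.05, 1896 of all tested clusters were then lower and 1644 higher, against 2344 and 1148 in the main fit. Directions for groups of clusters are therefore given relative to the other clusters.

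The calls depended on which libraries entered the fit. With only the *Dcl2* and *dcl2-mu1* libraries in the edgeR fit, 0 clusters were called in either direction, and 1233 and 887 had an unadjusted p under 0.05. Leaving out *Dcl2* replicate 1 or *Dcl2* replicate 2 also gave 0 calls by edgeR in both directions. Without replicate 1, the unadjusted p was under 0.05 at 1555 lower and 817 higher clusters, and without replicate 2 at 1679 and 795. DESeq2 on the 6 libraries called 417 lower and 275 higher. All 95 clusters kept their direction in each of these 4 fits, though a reversal was hardly possible because their genotypes did not overlap. Their lowest adjusted p by edgeR was 0.0167 with the 2 genotypes alone, 0.0189 without *Dcl2* replicate 1 and 0.0193 without *Dcl2* replicate 2.

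Without any threshold, both *dcl2-mu1* libraries lay below both *Dcl2* libraries at 7154 members (23.5%) and above both at 5440 (17.9%). These shares are the background for the counts of non-overlapping members below. The smallest p of an exact two-sided permutation test of 2 libraries against 2 is 0.33, so the values of single libraries are given as a description.

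The lower clusters lost most of their reads in both *dcl2-mu1* libraries. The 42 clusters held 1.42% and 1.65% of the counts of the *Dcl2* libraries and 0.112% and 0.126% of those of *dcl2-mu1*. In 19 of the 42, neither *dcl2-mu1* library had a read. In all 42, both *dcl2-mu1* libraries were also below both *dcl2T* libraries, and the *dcl2T* mean was within 2-fold of the *Dcl2* mean in 34. The median ratio of the genotype means was -5.58 on the log2 scale, with a floor of 3 reads over 2 libraries where a genotype had none.

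**Figure D1:**
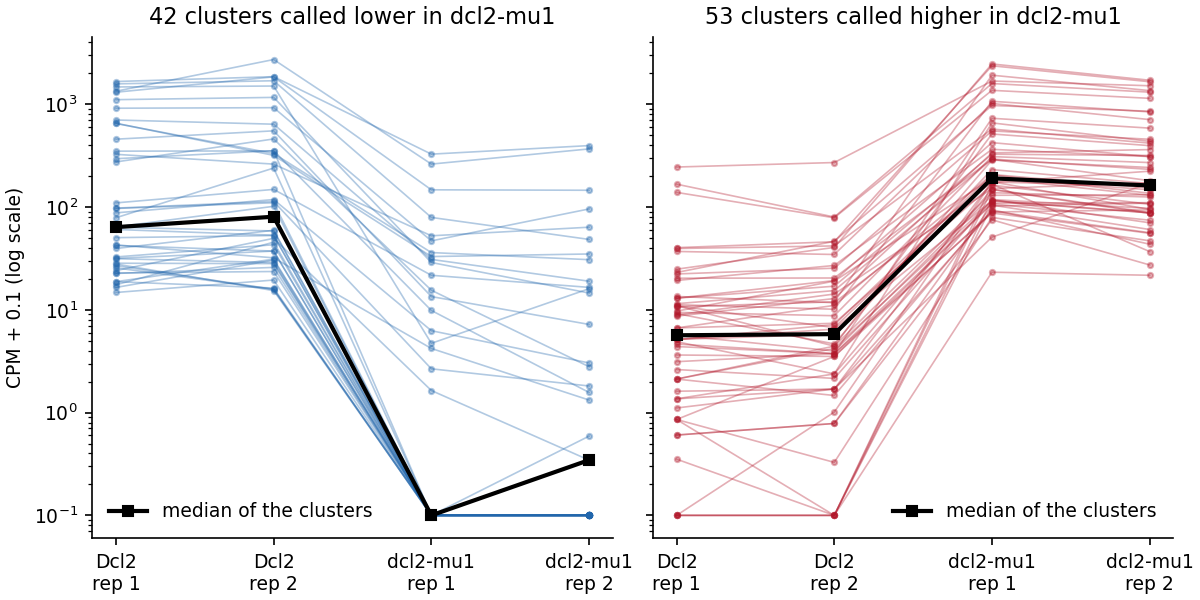
CPM + 0.1 (log scale) of each called cluster in the 2 Dcl2 and the 2 dcl2-mu1 libraries, with 1 thin line per cluster and the median in black. The 42 lower clusters reach the bottom line, which stands for no read, in both dcl2-mu1 libraries in 19 cases, and the 53 higher clusters lie above both Dcl2 libraries in both dcl2-mu1 libraries.

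Chromosome 10 held the most abundant lower clusters. Cluster_83347 (chromosome 10, 118703684 to 118703864, 181 bp) was the most abundant of the 42 and the only one under 200 bp. It had 1335 and 2714 CPM in *Dcl2* and 261 and 367 CPM in *dcl2-mu1*. The groups did not overlap, but the *Dcl2* libraries were further from each other in CPM than their lower value was from *dcl2-mu1* replicate 2. The edgeR log2 fold change was -3.00 ± 0.41 (SE), with a Benjamini-Hochberg adjusted p of 0.00989, the weakest of the lower calls. Both *dcl2T* libraries, at 786 and 648 CPM, lay between the groups.

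Cluster_84035 (chromosome 10, 133948831 to 133951863, 3033 bp) had 1659 and 1850 CPM in *Dcl2* and 326 and 395 CPM in *dcl2-mu1*. It was the smallest of the called decreases in the lower set, with an edgeR log2 fold change of -2.62 ± 0.30 (Benjamini-Hochberg adjusted p = 0.00400). Cluster_81927 (chromosome 10, 85381796 to 85385385, 3590 bp) had 1306 and 1842 CPM in *Dcl2* and 147 and 145 CPM in *dcl2-mu1*. Both libraries of *dcl2-mu1* were at the same level there, 10.8-fold below the *Dcl2* mean.

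A run of neighbouring clusters near the end of chromosome 10 fell together. When lower clusters within 10 kb of each other were joined, the 42 formed 39 regions, and the one region with more than 1 cluster held 4, over 42.0 kb (chromosome 10, 143127480 to 143169480). Joining within 100 kb added Cluster_84530 and gave 38 regions, and joining within 1 kb gave 42. No 2 higher clusters were joined at any of the 3 distances. Between this region and 100 kb to either side lay 11 members, all tested, of which 5 were called lower. In 10 of the 11, both *dcl2-mu1* libraries were below both *Dcl2* libraries. This stretch was picked because of the calls in it, so its counts are a description.

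Within the region, Cluster_84522 (11214 bp) had 1469 and 1500 CPM in *Dcl2* and 4.62 and 15.9 CPM in *dcl2-mu1*. Cluster_84523 (143144995 to 143149789, 4795 bp) had 1574 and 1688 CPM in *Dcl2* and 79.0 and 48.2 CPM in *dcl2-mu1*. Cluster_84525 (7620 bp) had 1105 and 1163 CPM in *Dcl2* and 28.7 and 14.4 CPM in *dcl2-mu1*. The *Dcl2* libraries were close to each other in all of these, and the *dcl2-mu1* libraries were more than an order of magnitude lower. Cluster_84526 (143165976 to 143169480, 3505 bp) had 701 and 638 CPM in *Dcl2* and 30.8 and 18.9 CPM in *dcl2-mu1*. By edgeR the log2 fold changes were -5.09 ± 0.30 for Cluster_84523 and -5.17 ± 0.34 for Cluster_84526, with Benjamini-Hochberg adjusted p values of 9.78e-05 and 0.000201. Summed over the 11 members, the stretch had 4918 and 5081 CPM in *Dcl2*, 6290 and 5497 CPM in *dcl2T*, and 173 and 118 CPM in *dcl2-mu1*. Cluster_84532, the last member of the stretch, did not share the pattern: it had 7.82 and 12.7 CPM in *Dcl2* and 23.1 and 12.2 CPM in *dcl2-mu1*. The clusters share a neighbourhood and may share reads that align to several places, so they are not independent observations.

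Lower clusters on chromosomes 1 to 9 reached a mean of 495 CPM over the 4 libraries and had a median of 35.9 CPM, against 1169 and 51.1 CPM on chromosome 10. Cluster_2006 (chromosome 1, 42246550 to 42251583, 5034 bp) had 912 and 923 CPM in *Dcl2* and 46.7 and 95.5 CPM in *dcl2-mu1*, a log2 fold change of -3.99 ± 0.46 by edgeR (Benjamini-Hochberg adjusted p = 0.00416). Its *dcl2T* libraries, at 1512 and 1460 CPM, were above those of *Dcl2*. Cluster_72632 (chromosome 9, 9688852 to 9690634, 1783 bp) had 274 and 458 CPM in *Dcl2* and 15.4 and 2.69 CPM in *dcl2-mu1*. Here the *dcl2-mu1* libraries were far apart, on 30 and 11 reads. Cluster_31773 (chromosome 3, 237450363 to 237460483, 10121 bp) was the most abundant of the lower clusters of at least 10000 bp apart from that within the joined region, with 97.3 and 113 CPM in *Dcl2* and 2.56 and 1.71 CPM in *dcl2-mu1*.

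A pair of lower clusters on different chromosomes had nearly the same values. Cluster_5748 (chromosome 1, 150770916 to 150771134, 219 bp) had 648 and 331 CPM in *Dcl2* and 35.9 and 30.6 CPM in *dcl2-mu1*. Cluster_15214 (chromosome 2, 56345842 to 56346760, 919 bp) had 652 and 317 CPM in *Dcl2* and 32.8 and 34.8 CPM in *dcl2-mu1*. In both, *Dcl2* replicate 1 was about as far above replicate 2, and in *dcl2T* they had 512 and 675 CPM and 497 and 686 CPM. How the aligner divided reads that match both places was not tested, and the pair may not be separate observations.

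The lower clusters with no read in *dcl2-mu1* were headed by Cluster_57455 (chromosome 6, 166466808 to 166467371, 564 bp), with 349 and 351 CPM in *Dcl2* and 388 and 413 CPM in *dcl2T*. Its 1383 and 1540 reads in *Dcl2* stood against 0 reads in both *dcl2-mu1* libraries, so it was at least 703-fold lower, taking 3 reads over the 2 libraries as the limit. Cluster_60726 (chromosome 7, 84210175 to 84212784, 2610 bp) had 311 and 1049 reads in *Dcl2* and was at least 319-fold lower. Cluster_65745 (chromosome 8, 20129338 to 20129822, 485 bp) had 383 and 482 reads in *Dcl2* and was at least 207-fold lower. An absence of this kind was shared by both *dcl2-mu1* libraries and by neither *dcl2T* library in all 3 clusters. Some of the other lower clusters without a *dcl2-mu1* read also had far less in *dcl2T* than in *Dcl2*. Of the lower calls, 8 of the 18 on chromosome 10 and 11 of the 24 elsewhere had no *dcl2-mu1* read. Over all members, 3236 (10.6%) had no read in *dcl2-mu1* and 856 (2.81%) had none in *Dcl2*. These shares are at unequal depth, with fewer counts in *dcl2-mu1*. Members were chosen on reads summed over both genotypes, so clusters empty in *dcl2-mu1* passed more easily than those empty in *Dcl2*.

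The higher clusters gained from a low level in *Dcl2*. The 53 clusters held 0.0985% and 0.0946% of the counts of the *Dcl2* libraries and 2.41% and 1.87% of those of *dcl2-mu1*. Only 3 of them had no read in *Dcl2*. Replicate 1 of *dcl2-mu1*, the library with fewer occupied clusters, was above replicate 2 in 45 of the 53. In 50 of the 53, both *dcl2-mu1* libraries were also above both *dcl2T* libraries. The part of the uneven coverage of replicate 1 in the higher calls was not tested beyond leaving the library out, which left 33 of the 53 called, while leaving out *dcl2-mu1* replicate 2 left 39.

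Cluster_21415 (chromosome 2, 222968835 to 222974755, 5921 bp) was the most abundant of the higher clusters, with 24.7 and 40.3 CPM in *Dcl2* and 2458 and 1708 CPM in *dcl2-mu1*. Its edgeR log2 fold change was 5.62 ± 0.38 (Benjamini-Hochberg adjusted p = 0.00021). Cluster_61833 (chromosome 7, 115826095 to 115830018, 3924 bp) had 40.1 and 45.8 CPM in *Dcl2* and 2361 and 1651 CPM in *dcl2-mu1*. Both had 39.2 to 61.7 CPM in the *dcl2T* libraries, near the *Dcl2* values. Cluster_62508 (chromosome 7, 133160491 to 133163018, 2528 bp) showed the widest gap of the 8 most abundant, from 10.6 and 11.8 CPM in *Dcl2* to 1912 and 1354 CPM in *dcl2-mu1*, a log2 fold change of 6.79 ± 0.35 by edgeR (Benjamini-Hochberg adjusted p = 9.78e-05). Cluster_65548 (chromosome 8, 14769540 to 14772906, 3367 bp) had 11.1 and 10.0 CPM in *Dcl2* and 1066 and 840 CPM in *dcl2-mu1*. In each of these 4 clusters both *Dcl2* libraries and both *dcl2T* libraries had at most 61.7 CPM, and the *dcl2-mu1* libraries differed from each other by less than 1.5 times.

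The other 4 of the 8 most abundant higher clusters had smaller folds. Cluster_11559 (chromosome 1, 287046634 to 287049249, 2616 bp) had 244 and 270 CPM in *Dcl2* and 1677 and 1509 CPM in *dcl2-mu1*, the smallest of the called increases, with a log2 fold change of 2.26 ± 0.26 by edgeR (Benjamini-Hochberg adjusted p = 0.00444). Its *dcl2T* libraries were intermediate, at 674 and 636 CPM. Cluster_78466 (chromosome 9, 157431441 to 157438656, 7216 bp) had 166 and 79.7 CPM in *Dcl2* and 1586 and 1308 CPM in *dcl2-mu1*. Cluster_14486 (chromosome 2, 37186047 to 37191525, 5479 bp) had 138 and 78.3 CPM in *Dcl2* and 1361 and 1139 CPM in *dcl2-mu1*. In this pair *Dcl2* replicate 1 was about double replicate 2, a difference small beside that between genotypes. Cluster_29341 (chromosome 3, 186720564 to 186723742, 3179 bp) had 22.9 and 46.2 CPM in *Dcl2* and 970 and 853 CPM in *dcl2-mu1*.

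Higher clusters of other lengths were fewer. Cluster_48712 (chromosome 5, 179411765 to 179413290, 1526 bp) had 36.8 and 34.4 CPM in *Dcl2* and 1015 and 707 CPM in *dcl2-mu1*. Cluster_53107 (chromosome 6, 70675525 to 70676254, 730 bp) had 3 and 0 reads in *Dcl2* against 288 and 353 reads in *dcl2-mu1*. Cluster_79685 (chromosome 10, 19443060 to 19456661, 13602 bp), the longest of the higher clusters, had 12.9 and 19.1 CPM in *Dcl2* and 422 and 309 CPM in *dcl2-mu1*. In *dcl2T*, Cluster_48712 had 36.7 and 32.9 CPM, near its *Dcl2* level, Cluster_79685 had 110 and 123 reads, and Cluster_53107 had 8 and 11 reads.

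In 3 of the higher clusters neither *Dcl2* library had a read, while all 4 libraries of the other genotypes did. Cluster_54196 (chromosome 6, 98322752 to 98323949, 1198 bp) had 199 and 444 reads in *dcl2-mu1* and 413 and 701 in *dcl2T*, at least 294-fold higher in *dcl2-mu1* than the limit for *Dcl2*. Cluster_5568 (chromosome 1, 145381745 to 145381765, 21 bp), the only higher cluster under 200 bp, had 324 and 150 reads in *dcl2-mu1* and 559 and 450 in *dcl2T*, at least 283-fold higher than that limit. Cluster_16362 (chromosome 2, 92962264 to 92963001, 738 bp) had 45 and 88 reads in *dcl2-mu1* and 87 and 91 in *dcl2T*, at least 62.2-fold higher. For these clusters the *Dcl2* libraries stood apart from all 4 other libraries.

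Calls were more frequent among longer clusters, which were also the more abundant ones. The median over members of the mean CPM was 1.81 to 2.23 in the classes under 2000 bp, 3.84 from 2000 to under 5000 bp, 15.0 from 5000 to under 10000 bp and 53.6 at 10000 bp or more. Of the members under 2000 bp, each length class had between 0.0829% and 0.290% of its tested clusters called lower. The share was 0.237% of 6744 tested clusters from 2000 to under 5000 bp, 0.768% of 912 from 5000 to under 10000 bp and 2.36% of 127 of at least 10000 bp, where it rests on 3 clusters. Higher calls numbered 32 among those from 2000 to under 5000 bp (0.474%), 8 from 5000 to under 10000 bp (0.877%) and 1 of at least 10000 bp. Of the 53 higher clusters, 40 were from 2000 to under 10000 bp, against 23 of the 42 lower clusters.

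**Figure D2:**
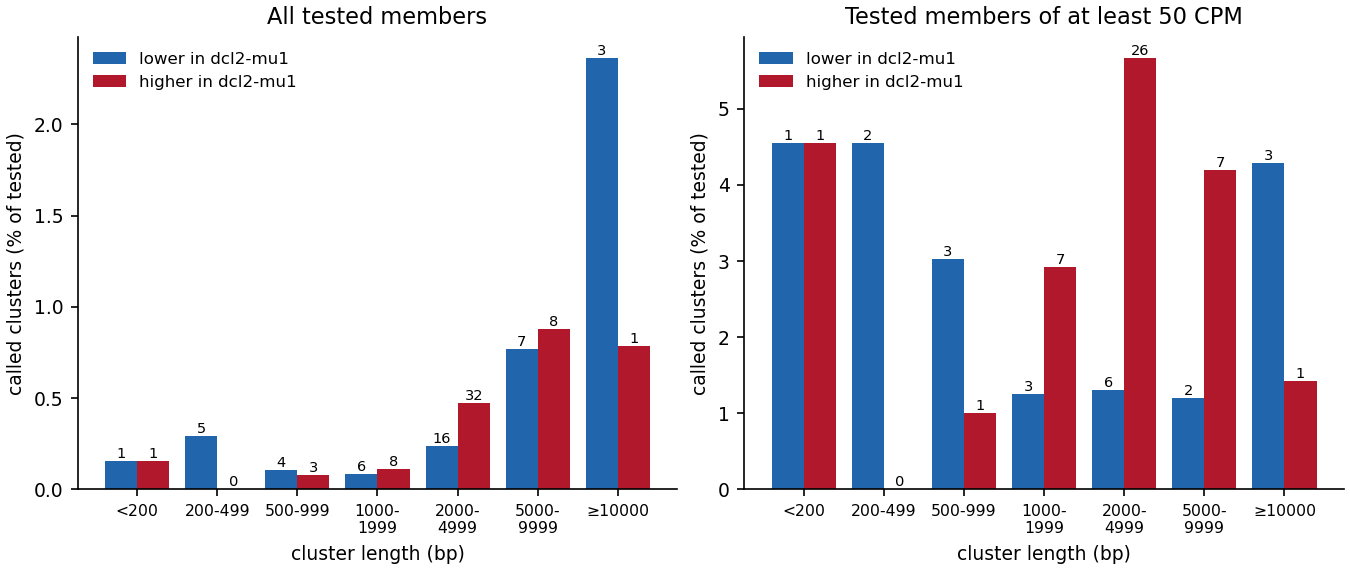
Percent of tested members called lower (blue) and higher (red) in dcl2-mu1 by cluster length, for all members and for those of at least 50 CPM, with the number called above each bar. Among all members the share called rises above 2000 bp, and at 50 CPM or more the class from 2000 to under 5000 bp has 26 higher and 6 lower calls.

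Within the 1101 members of at least 50 CPM (mean over the 4 libraries), 20 were called lower and 43 higher. From 2000 to under 5000 bp, 26 of 459 were higher (5.66%) and 6 lower. From 5000 to under 10000 bp, 7 of 167 were higher and 2 lower. Under 1000 bp the balance was the other way, with 6 lower and 2 higher. At this abundance, lower calls therefore took between 1.20% and 4.55% of every length class, without the rise by length seen over all members. Among the 26513 members under 10 CPM, 2 were called, both lower and both from 1000 to under 5000 bp.

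The distribution of all members by length differed between the *dcl2-mu1* libraries. The ratio of a library is given as the log2 of its CPM over the *Dcl2* mean, with 0.5 CPM added to both, and its median over all members was -1.16 in replicate 1 and -0.02 in replicate 2. The same ratio of *Dcl2* replicate 2 to replicate 1 had a median of 0.06. In members under 200 bp the medians were -1.81 and -0.32 for replicates 1 and 2, and they were closer to 0 or above it in longer classes, reaching -0.01 and 0.10 from 5000 to under 10000 bp. The classes under 2000 bp were also scarcer than the longer ones, but the class under 200 bp was not the scarcest of them. Its median mean CPM was 2.23, against 1.81 from 500 to under 1000 bp. Clusters of at least 10000 bp were an exception, at -0.11 and -0.05, and 36.7% of these 128 members had both *dcl2-mu1* libraries below both *Dcl2* libraries, against 23.5% of all members. Both were above both in 32 of the 128, also a larger share than the 17.9% of all members.

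The share of counts shifted between length classes in both *dcl2-mu1* libraries. Clusters of at least 10000 bp held 17.4% and 17.0% of the counts in *Dcl2* and 11.1% and 9.63% in *dcl2-mu1*. Those from 5000 to under 10000 bp held 20.5% and 20.9% in *Dcl2* and 26.3% and 25.4% in *dcl2-mu1*, and those from 2000 to under 5000 bp 29.5% and 31.1% against 35.1% and 34.2%. Members from 1000 to under 2000 bp held 19.5% and 18.1% in *Dcl2* and 15.9% and 17.5% in *dcl2-mu1*. The genotypes did not overlap in these 4 classes, each with an exact permutation p of 0.33, the smallest that 4 libraries allow. In the classes under 1000 bp the libraries overlapped.

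The loss of counts from the longest class lay largely in a pair of clusters on chromosome 8. Cluster_66207 (32579531 to 32609201, 29671 bp), the longest member, had 53932 and 49888 CPM in *Dcl2* and 25684 and 20356 CPM in *dcl2-mu1*. Cluster_66205 (32541762 to 32562866, 21105 bp) had 41426 and 34771 CPM in *Dcl2* and 15630 and 12891 CPM in *dcl2-mu1*. Neither met both conditions of a call: by edgeR the log2 fold changes were -1.56 ± 0.22 and -1.81 ± 0.24, with Benjamini-Hochberg adjusted p values of 0.0110 and 0.00794, and the second thus failed on its size alone. In *dcl2T* they were lower still, at 10490 and 10617 CPM and at 8080 and 7891 CPM. Without the 10 most abundant members of the table, the class of at least 10000 bp held 8.69% and 9.25% of the counts in *Dcl2* and 8.12% and 6.90% in *dcl2-mu1*. The other 3 of the 5 most abundant members were higher in both *dcl2-mu1* libraries than in both *Dcl2* libraries in CPM. Cluster_25109 on chromosome 3 had 49326 and 48005 CPM in *Dcl2* and 68965 and 63611 CPM in *dcl2-mu1*. Cluster_62573 on chromosome 7 had 24599 and 23052 against 31742 and 31079 CPM, and Cluster_41617 on chromosome 4 had 20415 and 21036 against 33364 and 29494 CPM. With TMM scaling their edgeR log2 fold changes were 0.07, 0.03 and 0.23, and none passed the test. 

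Abundance separated the *dcl2-mu1* libraries more than length did. In the 12996 members under 2 CPM, the median ratio was -2.05 in *dcl2-mu1* replicate 1, where 80.5% of them had no read, and -0.32 in replicate 2, where 25.4% had none. From 2 to under 5 CPM the medians were 0.12 and 0.00, and from 5 to under 10 CPM 0.47 and 0.18. Classes were set on the mean CPM of the same 4 libraries, and a single read of replicate 1 adds more CPM than one of any other, so members with reads in that library move into the higher classes. From 10 CPM upward the medians of both libraries stayed between -0.14 and 0.32, while those of *Dcl2* replicate 2 against replicate 1 were between -0.11 and 0.39. The medians of the *dcl2-mu1* libraries in these classes were thus of the size seen between the *Dcl2* libraries.

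**Figure D3:**
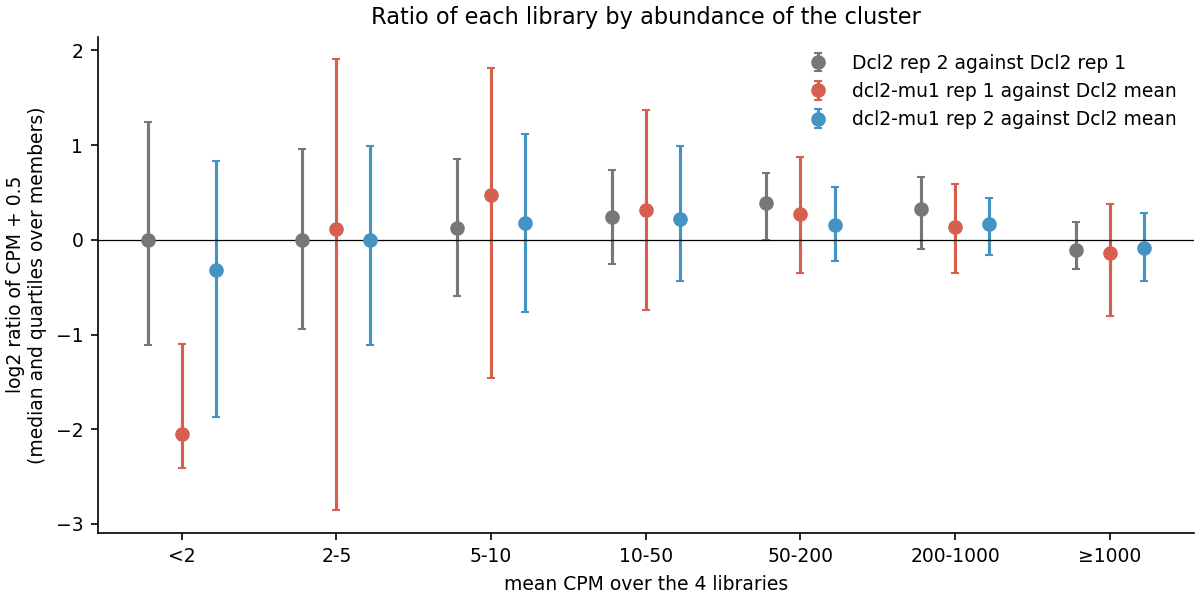
Log2 ratio of CPM + 0.5 by abundance class (mean CPM over the 4 libraries), with points at the median and bars from the lower to the upper quartile over members, for each dcl2-mu1 library against the Dcl2 mean and for the Dcl2 libraries against each other. The replicate 1 median is at -2.05 under 2 CPM, and from 10 CPM upward all medians are between -0.14 and 0.39.

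The spread narrowed with abundance. In *dcl2-mu1* replicate 1 the quartiles ran from -2.86 to 1.91 between 2 and 5 CPM and from -0.80 to 0.37 at 1000 CPM or more. Across the 3933 members of at least 10 CPM, log2 CPM of the *dcl2-mu1* libraries had a Pearson r of 0.785, and that of the *Dcl2* libraries 0.899. Across the 26513 members below 10 CPM the values were 0.144 and 0.228. These correlations are across clusters, which share depth and library composition and are not replicates. Values of single scarce members in a single library therefore carry little information, and the least abundant called members had a mean of 8.49 CPM among the lower and 11.2 CPM among the higher clusters.

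Calls were spread over the abundant classes. From 10 to under 50 CPM, 20 of 2817 tested members were lower and 10 higher. From 50 to under 200 CPM, 9 of 639 were lower and 29 higher (4.54%), and from 200 to under 1000 CPM 9 of 302 were lower and 12 higher. Among the 159 members of at least 1000 CPM, 2 were called in each direction. In that class 33 had a log2 fold change of -1 or less and 5 one of 1 or more, beside a median of -0.44. The median over all tested members was -0.27. These values depend on the scaling: the median over all tested clusters was -0.30 in the main fit and 0.02 with library size alone. The genotypes did not overlap in 56 lower and 52 higher members of this class, 35.2% and 32.7% against 23.5% and 17.9% of all members.

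The chromosome that stood apart was chromosome 10. It held 2000 members, 1440 of them tested, and 18 of the 42 lower calls (1.25% of those tested), while chromosomes 1 to 9 together held 24 (0.123% of 19520). The 18 include the 5 neighbouring calls near the end of chromosome 10, which are not independent observations. The lower calls on a chromosome other than 10 numbered from 1 to 6. Chromosome 10 thus held 42.9% of the lower calls, but this share was 18.3% with no filter on low counts, 19.7% with DESeq2, 26.5% with a replicate block and 24.4% without *dcl2-mu1* replicate 2. Without *dcl2-mu1* replicate 1, 11 of 23 lower calls were on chromosome 10, and without either *Dcl2* library there were 0 on any chromosome by edgeR. In these fits chromosome 10 held 6.92% to 7.08% of the tested clusters. Higher calls numbered 7 on chromosome 10 (0.486%), also the highest share of any chromosome, and 46 on chromosomes 1 to 9 (0.236%). On chromosome 10, 34.8% of the members had both *dcl2-mu1* libraries below both *Dcl2* libraries, against 20.7% to 23.8% on each of the other chromosomes.

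The shift on chromosome 10 was present in both *dcl2-mu1* libraries. The median ratio was -0.54 in replicate 2, against 0.00 over chromosomes 1 to 9, where single chromosomes ran from -0.05 to 0.05. In replicate 1 it was -1.67 on chromosome 10 and -1.10 over chromosomes 1 to 9. *Dcl2* replicate 2 against replicate 1 gave 0.03 and 0.07. The median edgeR log2 fold change on chromosome 10 minus that on chromosomes 1 to 9 was -0.49. This difference does not depend on the scale of a library, and over the alternative fits it stayed between -0.36 and -1.37.

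Members without a read showed the same. After thinning to equal totals, the share without a read on chromosome 10 minus that on chromosomes 1 to 9 was -2.66 and -2.74 percentage points in *Dcl2*, and 4.91 and 9.54 points in *dcl2-mu1*. In *dcl2T* it was -1.83 and -2.73 points. The 2 *dcl2-mu1* libraries thus had the opposite sign to the 4 others. Members were chosen on reads summed over the *Dcl2* and *dcl2-mu1* libraries. A member low in *dcl2-mu1* therefore had to hold its reads in *Dcl2*, so the signs of these genotypes are linked. The shares restate the shift in the ratios and are not a separate observation. The mean difference was -2.70 ± 0.06 points in *Dcl2* and 7.23 ± 3.27 in *dcl2-mu1* (SD, n = 2), with an exact two-sided permutation p of 0.33, the smallest possible.

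**Figure D4:**
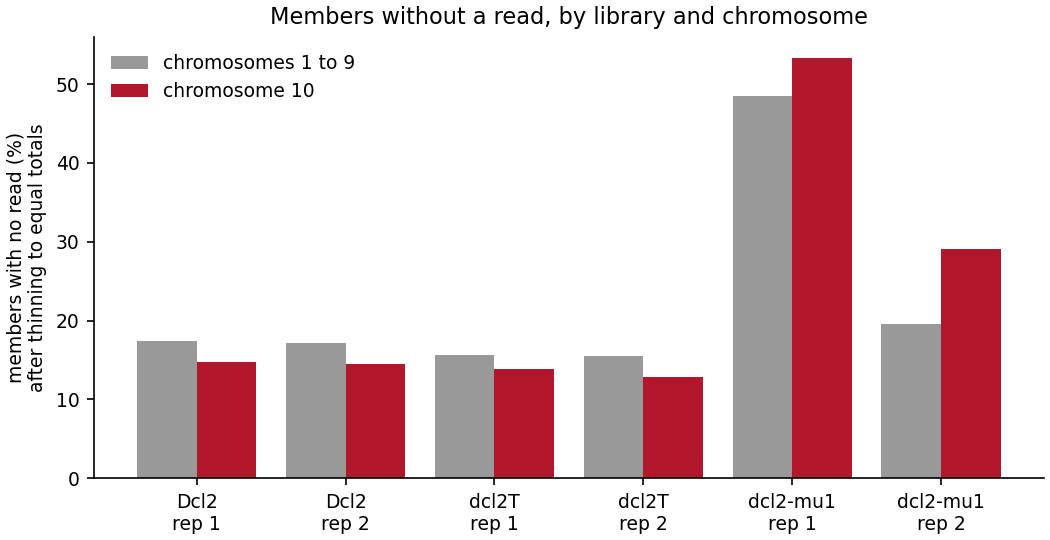
Percent of members with no read in each of the 6 pollen libraries after thinning to equal totals, for chromosomes 1 to 9 (grey) and chromosome 10 (red). The red bar is higher than the grey one in both dcl2-mu1 libraries and lower in the other 4.

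Windows along chromosome 10 varied. In all 15 of its 10-Mb windows with at least 20 members the median ratio in *dcl2-mu1* replicate 2 was below 0, from -1.55 to -0.05, and 9 were below -0.5. Of the 202 such windows on chromosomes 1 to 9, 105 were below 0 in replicate 2, and 12 were below -0.5. In replicate 1 the windows of chromosome 10 ran from -2.19 to -1.26 and those of chromosomes 1 to 9 from -2.40 to 0.07, so the ranges overlapped. The lowest of the 202 in replicate 2 was the window from 90 to 100 Mb on chromosome 2, at -1.39, which is within the range of chromosome 10. Lower calls fell in 9 of the 15 windows of chromosome 10 and in 23 of the 202 others. The window from 140 to 150 Mb of chromosome 10, which holds the joined region, had 8 of them among 192 tested clusters.

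**Figure D5:**
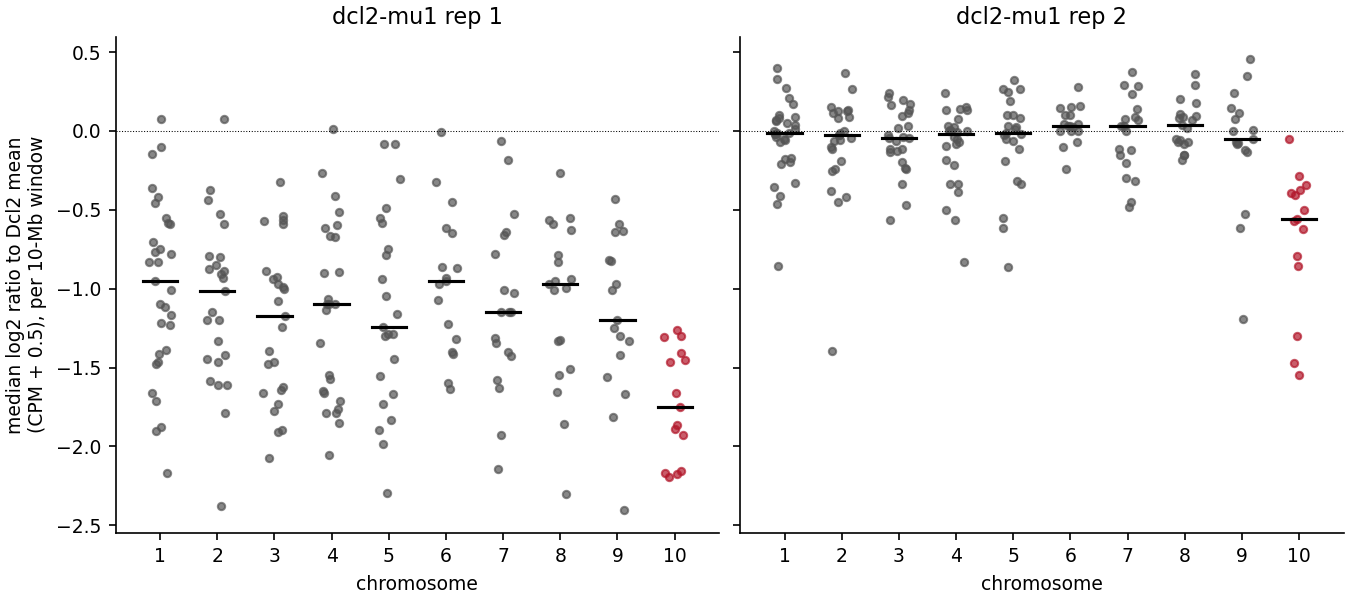
Median log2 ratio of CPM + 0.5 to the Dcl2 mean in 10-Mb windows with at least 20 members, by chromosome, for dcl2-mu1 replicate 1 (left) and replicate 2 (right), with 1 point per window and a bar at the median of the windows. In replicate 2 all 15 windows of chromosome 10 (red) lie below 0, from -1.55 to -0.05.

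The libraries of *dcl2-mu1* differed in which members of chromosome 10 were lower. In replicate 2, the median ratio of members under 2 CPM was -1.10 on chromosome 10 and -0.28 on chromosomes 1 to 9, and from 2 to under 5 CPM it was -0.48 and 0.00, and from 5 to under 10 CPM -0.26 and 0.21. From 10 to under 50 CPM it was 0.01 and 0.23, and in the 3 classes above it ran from -0.01 to 0.20 on chromosome 10 and from -0.09 to 0.16 on the others. In replicate 1, the medians under 2 CPM were -2.21 and -2.02, and from 2 to under 5 CPM -0.73 and 0.19. From 5 to under 10 CPM they were 0.34 and 0.52, and from 10 to under 50 CPM 0.05 and 0.34. From 50 to under 200 CPM they were 0.39 and 0.27. From 200 to under 1000 CPM they were -0.72 and 0.19 in replicate 1, and at 1000 CPM or more -0.61 and -0.14, on 31 and 20 members of chromosome 10. The gap between chromosome 10 and the others was thus widest at scarce members in replicate 2, whereas in replicate 1 it was about as wide from 200 to under 1000 CPM as from 2 to under 5 CPM. In the 3 classes between, the gap in replicate 1 was narrower, and from 50 to under 200 CPM it was reversed. Lower calls on chromosome 10 were in 8 of 171 tested clusters from 10 to under 50 CPM, 6 of 31 from 200 to under 1000 CPM and 2 of 20 of at least 1000 CPM. In *dcl2T*, the mean was within 2-fold of that of *Dcl2* in 17 of the 18 lower clusters of chromosome 10.

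Ends and middles of chromosomes 1 to 9, each pooled, differed less than chromosome 10 did from chromosomes 1 to 9. On chromosomes 1 to 9, the median ratio in replicate 2 was 0.06 in the outer parts (the first 2 and the last 2 of 10 equal parts of a chromosome) and -0.07 in the inner parts, and in replicate 1 it was -0.93 and -1.24. Both *dcl2-mu1* libraries were below both *Dcl2* libraries in 20.7% of the outer and 24.4% of the inner members. Single parts differed more. Over all chromosomes, chromosome 10 included, parts 5 and 10 of the 10 were the extremes. Their medians were -0.26 and 0.12 in replicate 2 and -1.57 and -0.67 in replicate 1, with 29.7% and 19.4% of members below. On chromosome 10 the outer parts had -0.40 and the inner parts -0.69 in replicate 2, and 14 of its 18 lower calls were in the outer parts, which held 764 of its 1440 tested clusters. The 14 include the 5 neighbouring calls near the end of the chromosome. The 259 members on unplaced scaffolds stood lower than any chromosome, with medians of -2.59 and -1.03 in replicates 1 and 2, and 39.0% of them below against 3.86% above. All 95 called clusters were on the chromosomes.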

How the data were processed

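Pollen small RNA was made into libraries with a NEXTFLEX kit. The authors trimmed reads with cutadapt, removed structural RNA with bowtie2 and grouped the rest into clusters with ShortStack. What they deposited are unnormalized whole-number counts for each cluster in each library, all read lengths together. Whether reads were collapsed by the random bases of the kit, how reads with several alignments were placed and the genome build of the table are not given in the sources used here. Coordinates are those of the table.

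Members, length and abundance classes and named clusters were chosen with earlier results of these data known. For the tests, edgeR 4.0.16 ran under R 4.3.3 (filterByExpr with minimum count 10 and minimum total 15, TMM, quasi-likelihood fit of 3 genotypes with 2 libraries each, Benjamini-Hochberg adjustment over 22558 clusters). Tested clusters held 96.0% to 97.7% of a library. An SE is the absolute log2 fold change over the square root of F. The procedure was run on simulated counts with large changes set in abundant clusters only. That run did not cover changes in scarce clusters or the uneven coverage of *dcl2-mu1* replicate 1, and no conclusion is drawn from it. Named were the 8 most abundant called clusters in each direction whose genotypes did not overlap, the most abundant called one of each length class, the 3 most abundant in each direction with no read in the lower genotype, and the 5 most abundant members. A cluster within 10 kb of one already named in that direction was passed over. Cluster_84522, Cluster_84525, Cluster_84530 and Cluster_84532 were named after their values were seen. CPM used the total count of a library. Precision is limited by depth, 1950081 to 4920576 counts, and floors cover counting error only. Alternatives were other scalings, filters, thresholds, DESeq2 1.42.0, only 2 genotypes, a replicate block, thinned counts and each library left out. Fertile, drive and sterile samples were not used here.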

Additional observations from a re-analysis of the deposited data

How the results depend on the processing

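The number of calls moved with the fit, and the cause was not tested. Against 42 lower and 53 higher calls, an adjusted p of 0.05 with a log2 fold change of 1 gave 170 and 152, DESeq2 417 and 275, no filter on low counts 311 and 183, and a filter of 15 reads over the 4 libraries 96 and 81. A filter of 5 CPM in 2 libraries gave 26 lower and 42 higher calls, library size alone gave 51 and 105, and only the 2 genotypes gave 0 and 0. Leaving out each library in turn gave 0 to 90 lower and 0 to 60 higher calls: 0 and 0 without either *Dcl2* library, 23 and 37 without *dcl2-mu1* replicate 1, and 90 and 42 without replicate 2. Of the 42 lower clusters, 21 and 28 were still called without *dcl2-mu1* replicate 1 and replicate 2. Apart from library size alone, the other scalings and the thinned counts gave 29 to 50 lower and 42 to 56 higher calls. With the replicate number as a block, 98 and 107 clusters were called. The labels do not say that the numbers pair the samples. Differences between replicates 1 and 2 in *Dcl2* and *dcl2-mu1* had an r of -0.01 over 22558 clusters and -0.095 over the 1100 of at least 50 CPM. Scarce clusters carry little information on pairing. With at least 50 reads per member, the median ratio of *dcl2-mu1* replicate 1 was 0.04 in place of -1.16, and on chromosome 10 it was -0.37 in place of -1.67. In replicate 2 on chromosome 10 it was -0.17 in place of -0.54. Depth limits what can be said of scarce members. At equal totals 49.0% of the members were empty in *dcl2-mu1* replicate 1, against 20.2% or less in the other 3 libraries. The members were chosen on counts before thinning, and the part of depth in this difference was not tested.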
